A study of Mus musculus with 18 samples.

Results

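The core of the hedgehog pathway was followed as 7 genes in mouse SHH medulloblastoma cells and in whole brain: the receptor gene Ptch1, the ligand-binding decoy gene Hhip, the transducer gene Smo, the inhibitor gene Sufu, and the transcription factor genes Gli1, Gli2 and Gli3. They were taken by gene name, with earlier results of these data known, and make up 7 of 55183 genes in the cell table and 7 of 19464 genes in the brain table. Both tables give FPKM, the fragments counted per kilobase of gene and scaled by library depth. The cells were PTCP53 304, a single line labelled SHH MB with the genotype Ptch1+/-; Trp53-/-, and they received vehicle or CT-179, which the labels describe as OLIG2 inhibition, for 24 h (day 1) or 144 h (day 6). The brains came from mice labelled Ptch1+/-; IR, where the letters IR are not explained, which were given vehicle or CT-179 from postnatal day 3 for 12 days and taken whole at postnatal day 15. There were 3 libraries in each of 6 groups, and every group, controls included, carried 1 mutant Ptch1 allele by its label. The cells and the brains were normalized separately, so levels were compared only within each table.

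In the hedgehog pathway, the membrane receptor PTCH1 holds back SMO until a hedgehog ligand binds it. Active SMO releases the GLI factors from SUFU in the primary cilium, GLI2 then acts mainly as an activator and GLI3 mainly as a repressor, and both Ptch1 and Gli1 are themselves transcribed in response, so that their transcripts are used as a readout of the pathway. Sonic hedgehog from Purkinje cells drives the division of granule cell precursors in the developing cerebellum, and loss of Ptch1 in these precursors can give rise to medulloblastoma.

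By the coordinates of the files (mm10), Ptch1 lies at chr13:63508328-63573598, Hhip at chr8:79965851-80058006, Smo at chr6:29735694-29761365 and Sufu at chr19:46396896-46488804. Gli1 lies at chr10:127329882-127341974, Gli2 at chr1:118834132-119053619 and Gli3 at chr13:15463235-15730026. Exons of Gli1 overlap those of Arhgap9 and Gm47200 on the other strand, exons of Gli3 overlap those of Gm6556, and exons of Hhip overlap those of Gm27820. The strand setting of the counting is not given in the sources used here, so reads of these pairs cannot be told apart.

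The depth implied by the smallest FPKM steps was 2.85e+07 to 6.86e+07 reads in the cell libraries and 1.70e+07 to 6.08e+07 in the brain libraries, with brain vehicle replicate 2 the shallowest. CT-179 replicate 2 at 144 h stood apart: it correlated with its own group at 0.941 and 0.943 (Pearson's r of log2 values across genes), where all other pairs of cell libraries within a group reached 0.996 or more. Brain vehicle replicate 2 held 5.21% of its summed FPKM in Lars2 and the overlapping Gm15564, where the other 5 brain libraries held 0.0234% to 0.0270%. Of the cells' label, the granule lineage genes Zic1, Zic2, Meis1 and Pax6 were present (vehicle 24 h means of 16.1, 11.3, 5.59 and 4.55 FPKM), while the defining markers Atoh1, Barhl1, Neurod1 and Gabra6 were below 0.1 FPKM in every cell library. Olig2, an oligodendrocyte lineage factor, stood at 382 FPKM, and all 5 microglia and all 5 blood markers were below 0.1 FPKM in vehicle cells at both times. Trp53 stood at 15.4 ± 0.272 FPKM in vehicle cells at 24 h (SD, n = 3), a value over the whole gene that does not check the Trp53-/- label, since the deleted part is not stated, and the same holds for Ptch1 and its Ptch1+/- label. The summed markers of endothelium did not exceed 0.297 FPKM in any cell library, and those of fibroblasts ran from 6.39 to 11.1 FPKM.

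Smo was the most abundant of the 7 transcripts in cells at both times. Of the ligand genes, Shh did not exceed 0.0330 FPKM in any cell library and Ihh did not exceed 0.0762, while Dhh reached 1.10 FPKM. At 24 h with vehicle the order of the mean FPKM was Smo (66.2), Sufu (13.1), Gli3 (10.4), Ptch1 (3.75), Gli2 (2.81), Gli1 (2.45) and Hhip (0.325). No neighbours in that order overlapped over their 3 libraries. At 144 h with vehicle the order was Smo (59.1), Ptch1 (25.2), Gli1 (20.4), Sufu (11.4), Gli2 (5.33), Gli3 (4.0) and Hhip (2.32), again with no overlap between neighbours. Ptch1 and Gli1 had thus passed Sufu and Gli3 between the 2 times.

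**Figure D1:**
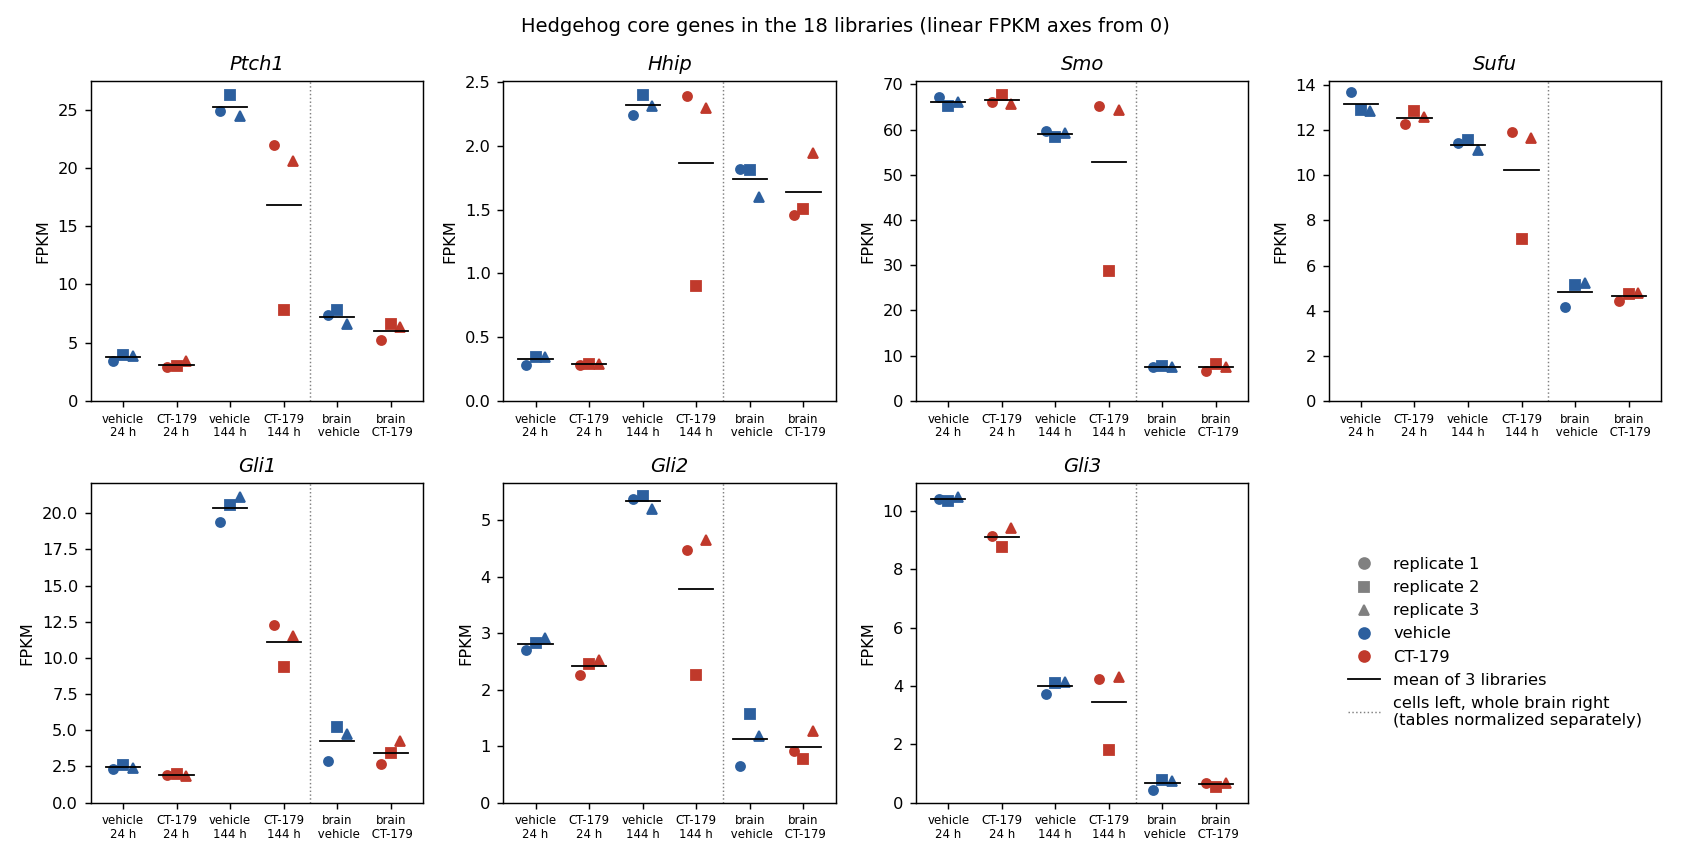
FPKM of each hedgehog core gene (linear axes from 0) in every library, by group, with vehicle in blue, CT-179 in red, 1 symbol per replicate number and the mean of 3 libraries as a bar. Ptch1, Hhip and Gli1 are high in the 144 h cells and Gli3 in the 24 h cells, and the red square of the 144 h cells (CT-179 replicate 2) lies under the other 2 red points in all 7 panels.

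The first comparison asked how these genes differ between day 1 and day 6 of culture without drug: Gli1, Ptch1 and Gli2 rose and Gli3 fell. Gli1, the effector whose transcript reads out the pathway, measured 2.34, 2.6 and 2.40 FPKM at 24 h and 19.4, 20.6 and 21.1 FPKM at 144 h in vehicle replicates 1, 2 and 3. Every 144 h library lay far above every 24 h library, the ratio of means was 8.33, and the log2 fold change was 2.63 (SE 0.09, limma adjusted p = 1.2e-09). In bulk samples such as these, fewer cells of a type and less RNA per cell cannot be told apart. All log2 fold changes are of FPKM + 1, which understates the change of low genes.

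Ptch1 measured 3.45, 3.98 and 3.84 FPKM at 24 h and 24.9, 26.3 and 24.5 FPKM at 144 h with vehicle. The groups did not overlap, with a ratio of means of 6.72, and on the log2 scale Ptch1 rose by 2.46 ± 0.29 (SE, limma adjusted p = 2.1e-05). Hhip, which binds the ligand at the surface and is another transcriptional target of the pathway, measured 0.280, 0.348 and 0.347 FPKM at 24 h and 2.24, 2.40 and 2.31 FPKM at 144 h. Its ratio of means was 7.14 and its log2 fold change 1.32 (SE 0.18, limma adjusted p = 6.1e-05), and 2.51 with a pseudocount of 0.1. Hhip reached the minimum of 1 FPKM in 3 libraries only through the 144 h cells, so this contrast could hardly have been flat, and it is not counted below.

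The 3 Gli genes did not move together. Gli2, the main activator, measured 2.70, 2.82 and 2.91 FPKM at 24 h and 5.37, 5.42 and 5.20 FPKM at 144 h with vehicle (log2 fold change 0.73, SE 0.17, limma adjusted p = 0.0030). Gli3, the main repressor, went the other way, from 10.4, 10.3 and 10.5 FPKM to 3.73, 4.11 and 4.15 FPKM (log2 fold change -1.19, SE 0.20, limma adjusted p = 3.2e-04). Within single libraries the ratio of Gli3 to Gli1 FPKM was 4.26 ± 0.249 at 24 h and 0.196 ± 0.00367 at 144 h (SD, n = 3 each), and the ratio of Gli2 to Gli1 was 1.15 ± 0.0634 and 0.262 ± 0.0154 (SD, n = 3 each).

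Smo, the membrane protein that passes the signal inward, measured 67.3, 65.3 and 66.1 FPKM at 24 h and 59.6, 58.4 and 59.4 FPKM at 144 h. Sufu, which binds and restrains the GLI proteins, measured 13.7, 12.9 and 12.9 FPKM and then 11.4, 11.6 and 11.1 FPKM. The groups did not overlap in either gene, but the differences were small (log2 fold changes -0.16 and -0.19) and missed the threshold in the fit of all 12 libraries (limma adjusted p = 0.58 and 0.25). Without CT-179 144 h replicate 2, whose spread enters the shared error, both passed (limma adjusted p = 2.2e-05 and 1.0e-04). Leaving Hhip aside, 3 of the 6 other members were called higher and 1 lower at 144 h, where 34.1% of all 12510 genes tested were called higher and 32.4% lower, so calls were common among all genes. Without CT-179 144 h replicate 2, 3 of these 6 were called higher and 3 lower, beside 44.2% and 43.4% of all genes. The exact two-sided permutation test of 3 libraries against 3 gave 0.1 for each of the 7 genes, the smallest p it allows.

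With CT-179 the same genes differed between the times. On the log2 scale Gli1 differed by 2.05 ± 0.09 (SE, limma adjusted p = 7.8e-09), Ptch1 by 2.00 ± 0.29 (1.1e-04) and Gli3 by -1.24 ± 0.20 (2.4e-04). The value was 1.11 for Hhip, and 0.44 ± 0.17 for Gli2 (limma adjusted p = 0.040). Gli2 overlapped between the times (exact permutation p = 0.4) through CT-179 144 h replicate 2. It missed the threshold when any of the other 11 cell libraries was left out (limma adjusted p from 0.054 to 0.14), with no filter on low values (0.081), with TPM scaling (0.14) and in a fit of the CT-179 libraries alone (0.15). Of the 6 members without Hhip, 3 were called higher and 1 lower, against 33.2% and 32.1% of all genes tested. Without CT-179 144 h replicate 2 the values were 2.15 for Gli1, 2.45 for Ptch1, 0.70 for Gli2, -0.94 for Gli3 and -0.09 for Sufu (limma adjusted p = 0.040), and Smo stayed uncalled (-0.04, limma adjusted p = 0.17). In that fit 3 of the 6 were called higher and 2 lower, beside 43.9% and 41.7% of all genes.

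**Figure D2:**
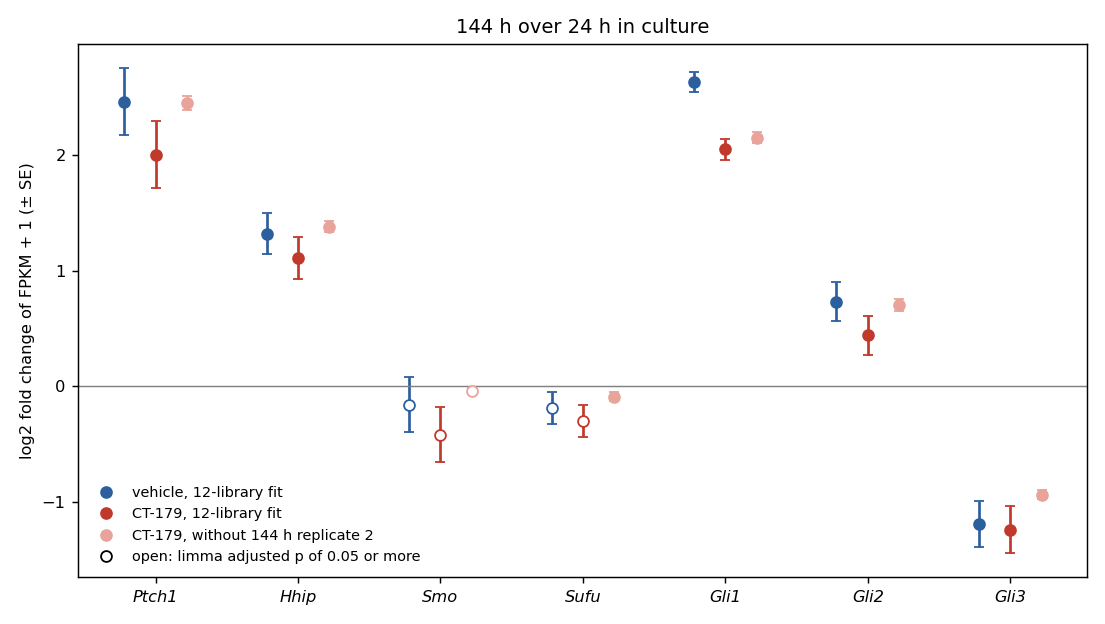
Log2 fold change of FPKM + 1 (± SE) of 144 h over 24 h for each core gene, in vehicle cells and in CT-179 cells with and without CT-179 144 h replicate 2, filled where limma's adjusted p is under 0.05. Ptch1, Hhip, Gli1 and Gli2 lie above 0 and Gli3 below 0 in all 3 series, and Smo and Sufu lie under 0, nearest to it when that library is left out.

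Other groups of genes differed between the times as well. The summed FPKM of 8 proliferation genes was 790 to 814 at 24 h and 95.4 to 100.1 at 144 h with vehicle, with all 8 genes at 1 FPKM or more in every library. The summed FPKM of 7 astrocyte genes was 139 to 143 and then 615 to 620, of which Gfap went from 0.410 to 93.7 FPKM, while Gdf10 stayed below 0.1 FPKM. The neuronal sum was 37.5 to 38.5 and then 95.6 to 99.0 FPKM (Calb1 and Pcp2 below 0.1 at both times), and the oligodendrocyte lineage sum 1015 to 1132 and then 681 to 707 FPKM, with Mog below 0.1 at both. Within the latter sum the mean of Olig1 went from 657 to 397 FPKM, while Gpr17 went from 0.228 to 49.3 and Pdgfra from 6.54 to 21.4. The part of these differences in the levels of the hedgehog genes was not tested.

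Among the other 47 hedgehog pathway genes, 38 were tested between the times in vehicle cells. Of these, 5 reached 1 FPKM at only 1 of the times, namely Dhh at 24 h and Scube2, Mycn, Igf2 and Cdk6 at 144 h, so that the filter set their direction; Igf2 and Cdk6 are named after their values were seen. Among the other 33, 9 were called higher and 12 lower (27.3% and 36.4%), beside 34.1% and 32.4% of all genes, so that the shares were near those of all genes. The co-receptor genes Gas1 and Cdon fell (log2 fold changes -2.05 and -2.20, limma adjusted p = 1.7e-10 and 5.7e-08). Of the 9 target genes that did not pass through 1 time alone, 0 rose and 5 fell, among them the cyclin genes Ccnd1 and Ccnd2 and the mitotic factor gene Foxm1 (-2.86, -3.37 and -2.70). Mycn, which drives precursor growth, had a mean of 0.275 FPKM at 24 h and 2.76 FPKM at 144 h. Of 21 genes between SMO and the GLI factors, 9 rose and 5 fell, with the kinase genes Ulk3 and Stk36 among the risers (1.01 and 1.24).

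The next comparison asked what CT-179 did within 24 h. Gli1 measured 1.88, 1.98 and 1.84 FPKM with CT-179 against 2.34, 2.6 and 2.40 with vehicle. Gli2 measured 2.26, 2.46 and 2.53 against 2.70, 2.82 and 2.91. Gli3 measured 9.14, 8.75 and 9.41 against 10.4, 10.3 and 10.5. The CT-179 libraries lay under all vehicle libraries in each of the 3 Gli genes.

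Ptch1 measured 2.92, 2.98 and 3.41 FPKM with CT-179 against 3.45, 3.98 and 3.84 with vehicle at 24 h, close together but without overlap. Sufu measured 12.3, 12.8 and 12.6 against 13.7, 12.9 and 12.9, also without overlap. Smo (65.8 to 67.7 against 65.3 to 67.3) and Hhip (0.279 to 0.291 against 0.280 to 0.348) overlapped.

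In the fit of all 12 libraries 0 of the 7 genes passed, where limma called 0.264% of all genes lower, and 1 of the 7, Gli1, had an unadjusted p under 0.05. The log2 fold changes were -0.25 for Gli1 (SE 0.09, limma adjusted p = 0.62), -0.21 for Ptch1, -0.18 for Gli3, -0.16 for Gli2, -0.06 for Sufu, -0.04 for Hhip and 0.01 for Smo, with a median of -0.16 beside -0.01 over all genes tested. Without CT-179 144 h replicate 2 the fold changes were the same and the standard errors smaller, and 4 of the 7 passed, all lower: Gli1 (limma adjusted p = 0.0031), Gli3 (0.0093), Ptch1 (0.019) and Gli2 (0.021). In that fit 14.1% of all genes were called lower and 8.08% higher, and median-of-ratios scaling turned this split to 1071 lower and 2624 higher genes. With that scaling Gli2 no longer passed (-0.11, limma adjusted p = 0.072) and Smo did (0.07, limma adjusted p = 0.043). With a correction for each library's dependence on gene length, Gli1 alone of the 7 passed (-0.22, limma adjusted p = 0.0075).

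The exact permutation p was 0.1 for the 5 genes without overlap. The summed proliferation genes overlapped between the groups at 24 h (800 to 805 FPKM with CT-179 against 790 to 814), and so did the summed oligodendrocyte lineage genes (1089 to 1182 against 1015 to 1132). The summed granule lineage genes, of which 7 of 12 were below 0.1 FPKM, ran from 34.8 to 36.4 FPKM with CT-179 and from 36.5 to 39.3 with vehicle. The summed neuronal genes ran from 35.1 to 37.0 against 37.5 to 38.5 FPKM (Snap25, Calb1 and Pcp2 below 0.1), and the summed astrocyte genes from 137 to 138 against 139 to 143. Of the astrocyte genes, Slc1a3 (91.5 to 93.9 against 93.7 to 96.9) and Sox9 overlapped. Gfap, which was low in all, was higher with CT-179 (0.458 to 0.627 against 0.357 to 0.448 FPKM). Of single proliferation genes, Mki67 was lower with CT-179 (47.3 to 50.9 against 63.4 to 68.2 FPKM), while Cdk1 (54.8 to 56.5 against 44.6 to 51.9), Ccnb1 (90.8 to 94.0 against 84.7 to 87.7) and Plk1 (93.1 to 96.1 against 87.1 to 92.0) were higher, all without overlap. Their part in the lower values of the core genes was not tested.

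At 144 h, the comparison asked how CT-179 and vehicle cells differ on day 6, and Gli1 fell. It measured 12.3, 9.38 and 11.5 FPKM with CT-179 against 19.4, 20.6 and 21.1 with vehicle. All CT-179 libraries lay below all vehicle libraries, the ratio of means was 0.543, and the log2 fold change was -0.83 (SE 0.09, limma adjusted p = 0.0016). Without replicate 2 the ratio was 0.585 and the log2 fold change -0.73 (SE 0.05, limma adjusted p = 1.1e-05). In a fit of the 6 libraries at 144 h alone limma passed 0 of 11958 genes (1071 had an unadjusted p under 0.05), and Gli1 did not pass (limma adjusted p = 0.13).

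Ptch1 measured 22.0, 7.85 and 20.6 FPKM with CT-179 against 24.9, 26.3 and 24.5 with vehicle. The groups did not overlap, but replicate 2 alone set most of the difference: the log2 fold change was -0.68 (SE 0.29, limma adjusted p = 0.16) with it and -0.23 (SE 0.06, limma adjusted p = 0.017) without it. Gli2 showed the same pattern, with 4.47, 2.25 and 4.64 FPKM against 5.37, 5.42 and 5.20. Its log2 fold change was -0.45 (SE 0.17, limma adjusted p = 0.15) with replicate 2 and -0.19 (SE 0.05, limma adjusted p = 0.012) without it. With the length correction of the 11 libraries neither passed (-0.11 for Ptch1 and -0.13 for Gli2, limma adjusted p = 0.15 and 0.062).

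The other 4 genes lay on the other side of vehicle in replicates 1 and 3 than in replicate 2, or level with it. Smo measured 65.3, 28.7 and 64.4 FPKM with CT-179 against 59.6, 58.4 and 59.4, and its log2 fold change was -0.25 (SE 0.24, limma adjusted p = 0.42) with all libraries and 0.13 (SE 0.02, limma adjusted p = 0.0028) without replicate 2. Gli3 measured 4.24, 1.80 and 4.30 FPKM against 3.73, 4.11 and 4.15 (log2 fold change -0.23 with and 0.08 without replicate 2). Sufu measured 11.9, 7.18 and 11.7 FPKM against 11.4, 11.6 and 11.1 (-0.17 and 0.05), and Hhip 2.39, 0.904 and 2.30 FPKM against 2.24, 2.40 and 2.31 (-0.26 and 0.01). Gli3, Sufu and Hhip did not pass in either fit, and Gli3 and Sufu passed as higher in the 11 libraries with the length correction (0.16 and 0.12, limma adjusted p = 0.014 and 0.038).

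In all, 1 of the 7 genes was called lower at 144 h with all libraries, where 3.37% of all genes were, and the median of the 7 was -0.26 beside -0.05 over all genes. Without replicate 2, 3 of the 7 were called lower and 1 higher, where 16.9% of all genes were called lower and 11.8% higher (1407 lower and 2775 higher genes with median-of-ratios scaling), and the median of the 7 was 0.01 beside -0.01. Of the exact permutation tests of 3 against 3, those of Gli1, Gli2 and Ptch1 gave 0.1. With 2 against 3 libraries the smallest exact p is 0.2.

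**Figure D3:**
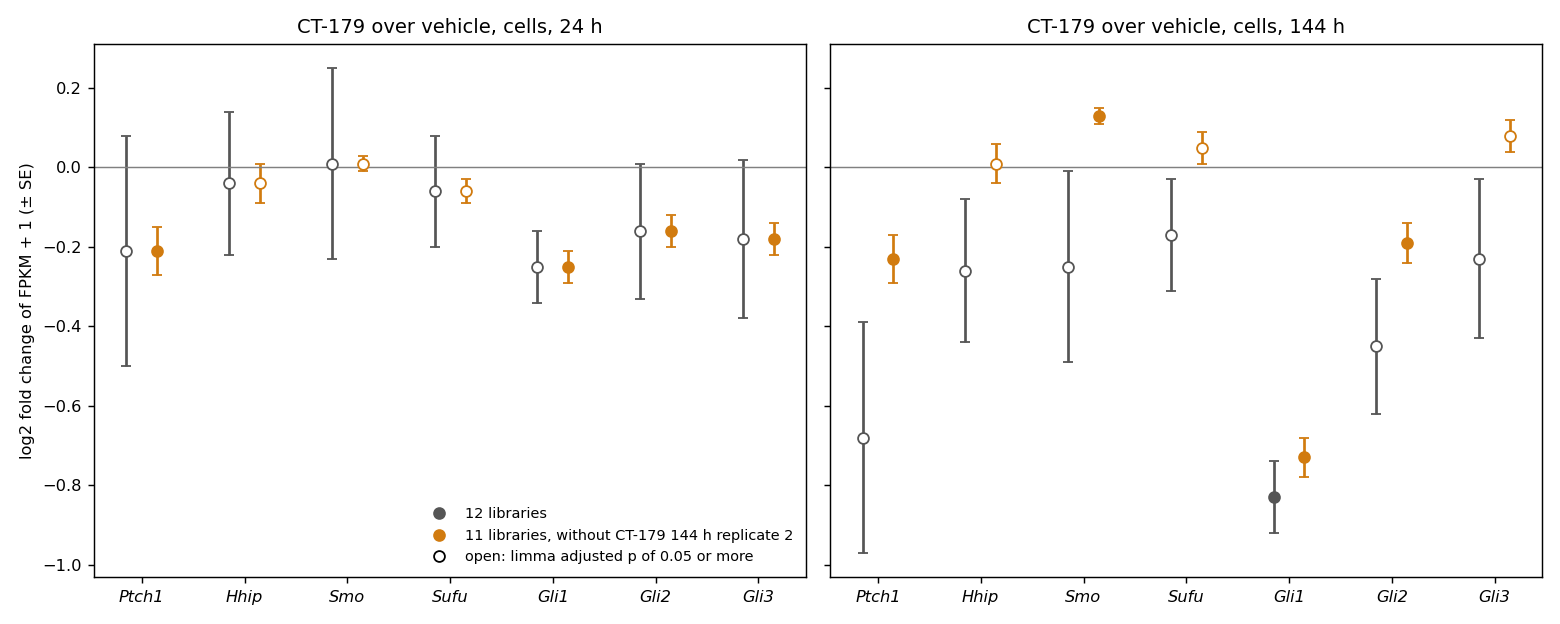
Log2 fold change of FPKM + 1 (± SE) of CT-179 over vehicle for each core gene at 24 h (left) and 144 h (right), in the fit of all 12 libraries (grey) and of 11 libraries without CT-179 144 h replicate 2 (orange), filled where limma's adjusted p is under 0.05. Gli1 is the lowest gene in both panels and both fits, and at 144 h all 7 genes shift upward when the library is left out.

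Replicate 2 was low in all 7 genes, least in Gli1, the shortest, and most in Ptch1, the longest, while the order of the 5 between them did not follow length. Relative to the mean of replicates 1 and 3, its FPKM was 0.788 for Gli1 (4995 exonic bases), 0.443 for Smo (5621), 0.494 for Gli2 (6869), 0.610 for Sufu (7691), 0.386 for Hhip (9076), 0.421 for Gli3 (9589) and 0.368 for Ptch1 (14185), while the median over all tested genes was 0.927. The summed markers differed in it as well: neurons 56.8 FPKM against 89.0 and 86.7 in replicates 1 and 3, astrocytes 502 against 607 and 601, oligodendrocyte lineage 848 against 749 and 723, and proliferation 127 against 100.1 and 100.6. Single genes of each of these sums were divided. Map2 (30.6 against 71.4 and 70.0 FPKM) was lower, while Tubb3 (22.8 against 13.6 and 13.5) and Syp (2.01 against 1.27 and 1.04) were higher. Slc1a3 (184 against 314 and 301) and Aqp4 (11.4 against 27.5 and 25.9) were lower. Hopx (52.2 against 29.6 and 30.3) and Sox9 (160 against 123 and 121) were higher. Pcna (87.5 against 55.1 and 54.9 FPKM) and Cdk1 (7.51 against 4.84 and 4.52) were higher, while Mki67 (1.42 against 3.12 and 3.19) and Top2a (4.68 against 8.03 and 8.14) were lower. Olig1 was higher (625 against 465 and 444), while Olig2 (180 against 215.5 and 213) and Pdgfra (9.68 against 20.7 and 21.55) were lower. The part of these markers in the low values was not tested. Without replicate 2, CT-179 and vehicle also differed in summed markers at 144 h: the neuronal sum was 86.7 to 89.0 against 95.6 to 99.0 FPKM (Calb1 and Pcp2 below 0.1 FPKM in all), and the astrocyte sum 601 to 607 against 615 to 620, while the oligodendrocyte lineage sum was 723 to 749 against 681 to 707. Single genes of the last 2 sums were divided. Slc1a3 was lower (314 and 301 against 341.8 to 351.5 FPKM), while Gfap was higher (111.5 and 120.7 against 85.9 to 98.4). Olig1 was higher (465 and 444 against 391 to 403), while Gpr17 (27.7 and 24.9 against 45.7 to 51.5) and Cspg4 (16.1 and 15.8 against 21.2 to 22.8) were lower. The part of these markers in the drug's values was not tested.

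**Figure D4:**
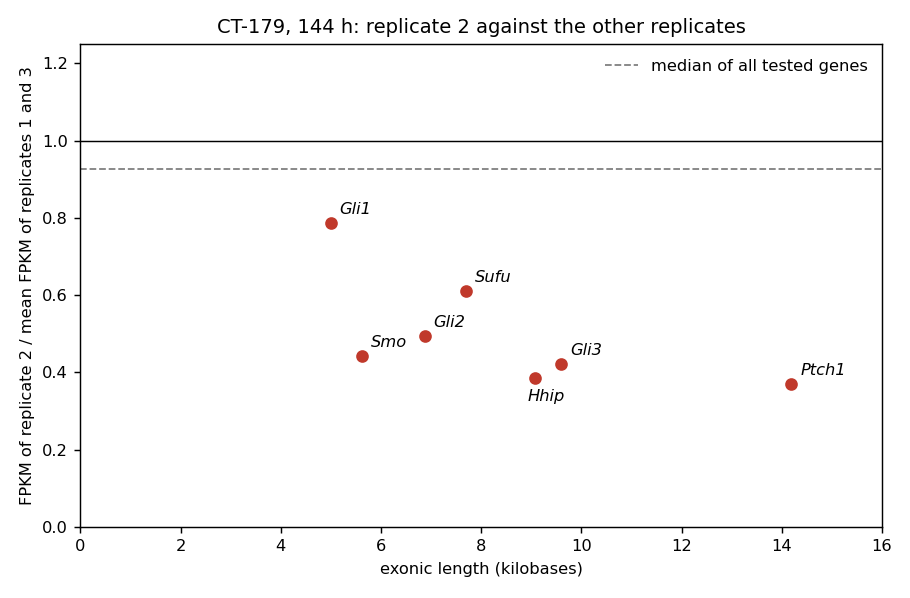
FPKM of CT-179 144 h replicate 2 divided by the mean FPKM of replicates 1 and 3 for each core gene, against its exonic length in kilobases, with the median of all tested genes dashed and equality as a solid line. All 7 genes lie below the dashed line, from 0.788 for Gli1 to 0.368 for Ptch1, the longest of them.

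Whether the effect of CT-179 differed between the times was tested directly. With all 12 libraries none of the 7 differed, where limma called 0% of all genes (574 of 12510 at an unadjusted p under 0.05, Gli1 among them). For Gli1 the effect at 144 h minus that at 24 h was -0.58 (SE 0.12, limma adjusted p = 0.47). Without replicate 2, 2 of the 7 passed against 2.66% of all genes: Gli1 with -0.48 (SE 0.07, limma adjusted p = 0.0058) and Gli3 with 0.25 (SE 0.06, limma adjusted p = 0.046). Gli3 no longer passed when these 11 were scaled by median of ratios (0.24, limma adjusted p = 0.061). In those libraries the fall of Gli1 was larger at 144 h than at 24 h, and the effect on Gli3 was -0.18 at 24 h and 0.08 at 144 h. The differences for Ptch1 (-0.02), Gli2 (-0.03), Hhip (0.05), Sufu (0.11) and Smo (0.12) did not pass.

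Gli1 and Ptch1, both used as readouts of the pathway, were also set against each other within single libraries. The ratio of Gli1 to Ptch1 FPKM was 0.778, 0.781 and 0.864 with vehicle at 144 h, and 0.558, 1.20 and 0.559 with CT-179. Replicates 1 and 3 lay under all vehicle libraries and replicate 2 above them. At 24 h the ratio was 0.652 ± 0.0269 with vehicle and 0.616 ± 0.0671 with CT-179 (SD, n = 3 each, overlapping). The ratio of Hhip to Ptch1, by contrast, stayed between 0.0811 and 0.0965 in all libraries of the other 3 cell groups, and was 0.109, 0.115 and 0.111 with CT-179 at 144 h, so that replicate 2 did not stand apart in it. These ratios were chosen after the values of the genes had been seen, and no test was made of them.

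Across the 12 cell libraries, which share their groups and their depth, log2(FPKM + 1) of Hhip and Ptch1 correlated with a Pearson's r of 1.00, Gli1 and Ptch1 with 0.98, Gli1 and Gli2 with 0.87, Gli1 and Gli3 with -0.84, and Smo and Sufu with 0.97. These values describe mainly the difference between the times and the library that stood apart. By the same measure over the 12 libraries the genes most like Gli1 were Oprl1, Flcn and Pyroxd2 (0.997, 0.996 and 0.996). Those most like Ptch1 were Abca1 and Pag1 (0.999 and 0.999), and those most like Hhip were Ahnak, Bmpr1b and Nfasc (0.999, 0.999 and 0.999). For Gli2 they were Gramd1b, Gprasp1 and Enah (0.995, 0.994 and 0.994), and for Gli3 Fndc3c1, Dmd and Sorcs1 (0.998, 0.998 and 0.998). For Smo they were Ripk1, Nfya and Nhsl1 (0.994, 0.992 and 0.991), and for Sufu Stk4, Ehmt1 and Rpap1 (0.989, 0.989 and 0.988).

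The promoters of the genes were searched for the sites that GLI factors and OLIG2 are known to bind. RefSeq (GRCm38.p6) gave the 250 bases before the start of 6 of the 7 genes. Shown are Ptch1 and Hhip, whose transcripts correlated at a Pearson's r of 1.00 over the 12 cell libraries, and Gli3, which moved against Gli1. Their windows are chr13:63565736-63565985 on the minus strand, chr8:80058009-80058258 on the minus strand and chr13:15463473-15463722 on the plus strand, each read 5′ to 3′ toward the gene. The window of Ptch1 lies inside the span of the annotated gene and outside its exons, and that of Hhip lies outside the gene. The window of Gli3 lies inside the span of the annotated gene and also overlaps an exon of Gm6556. Capitals mark the letters of an E-box, the kind of site that OLIG2 and related factors bind.

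Ptch1: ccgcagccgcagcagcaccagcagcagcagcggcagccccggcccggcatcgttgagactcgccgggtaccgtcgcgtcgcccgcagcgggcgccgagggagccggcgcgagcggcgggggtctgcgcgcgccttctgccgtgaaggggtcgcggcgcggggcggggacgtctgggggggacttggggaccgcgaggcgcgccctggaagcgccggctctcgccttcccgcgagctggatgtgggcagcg

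Hhip: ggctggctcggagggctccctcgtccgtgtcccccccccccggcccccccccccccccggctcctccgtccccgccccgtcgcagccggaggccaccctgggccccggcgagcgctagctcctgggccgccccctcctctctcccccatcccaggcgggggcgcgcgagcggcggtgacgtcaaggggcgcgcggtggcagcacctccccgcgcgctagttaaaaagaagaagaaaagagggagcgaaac

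Gli3: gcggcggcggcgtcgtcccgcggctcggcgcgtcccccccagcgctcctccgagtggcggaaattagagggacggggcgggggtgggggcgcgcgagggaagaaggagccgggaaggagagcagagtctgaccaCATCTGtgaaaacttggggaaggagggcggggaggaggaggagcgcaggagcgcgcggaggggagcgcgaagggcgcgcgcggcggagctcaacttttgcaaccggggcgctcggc

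On both strands, the GLI site GACCACCCA was in 0 of the 6 windows, as in 0.225% of 32851 promoter windows of the same length. Its core CCACCCA, which lies within that site, was in 0 of the 6 and in 8.11% of all. The E-box CANNTG was in the windows of Gli3 and Sufu, 1 match each, and in 66.2% of all windows. The match in Gli3 reads CATCTG, the reverse complement of the form CAGATG, which 14.4% of all windows hold. The windows of the 6 genes were rich in G and C, from 54.0% in Sufu to 78.4% in Ptch1, where the median of all windows was 52.4%. A match is a run of letters and not a bound site, and its absence says only that these letters are not in this window.

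Beside the core genes, the 4 lists of other pathway genes were read against the shares of all genes called for the drug. At 24 h, limma called 0 of the 38 tested in the fit of all libraries (1 at an unadjusted p under 0.05), where 0.264% of all genes were called lower. Without CT-179 144 h replicate 2 it called 8 lower and 0 higher, beside 14.1% and 8.08% of all genes, and 2 lower and 2 higher once the 11 were scaled by median of ratios. The 8 included the co-receptor genes Cdon (-0.20, limma adjusted p = 0.0052) and Boc (-0.10, 0.046) and the kinase gene Ulk3 (-0.25, 0.010). At 144 h, 2 genes were lower and 1 higher with all libraries, beside 3.37% and 0.512% of all genes. The kinase gene Ulk3 fell, with 3.47, 3.95 and 3.43 FPKM against 4.74, 5.31 and 5.14 (log2 fold change -0.39, limma adjusted p = 0.018). Foxm1 fell from 3.52 ± 0.0127 to 2.24 ± 0.494 FPKM (SD, n = 3 each, log2 fold change -0.49, limma adjusted p = 0.022). Gas1, the co-receptor gene, rose with 15.2, 15.0 and 14.5 FPKM against 12.6, 12.2 and 12.1 (log2 fold change 0.26, limma adjusted p = 0.026). In all 3 genes the groups did not overlap. Without replicate 2, 5 were lower and 3 higher, beside 16.9% and 11.8% of all genes, and with median-of-ratios scaling 3 were lower and 5 higher. In the fit without that scaling, among the targets Foxm1 and Nkx2-2 were lower (-0.36 and -0.31) while Ccnd2 and Mycn were higher (0.29 and 0.20).

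In whole brain the question was whether 12 days of CT-179 changed the pathway in mice that carry 1 mutant Ptch1 allele. The directions rest on the treatment labels, since the titles of the CT-179 brains also contain the word vehicle. Smo (7.57, 7.79 and 7.40 FPKM with vehicle) and Ptch1 (7.38, 7.78 and 6.56) were the highest of the 7 and overlapped. Sufu (4.17, 5.15 and 5.21) and Gli1 (2.86, 5.24 and 4.74) came next and overlapped, followed by Hhip (1.82, 1.81 and 1.60) and Gli2 (0.642, 1.56 and 1.18). Gli3 was lowest (0.447, 0.785 and 0.740), overlapped Gli2, did not reach 1 FPKM in any brain library and was not tested.

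With CT-179, Ptch1 measured 5.23, 6.58 and 6.31 FPKM, so that only its highest library overlapped the lowest vehicle library. Its log2 fold change was -0.23 (SE 0.10, limma adjusted p = 0.97, exact permutation p = 0.2). Gli1 measured 2.70, 3.44 and 4.23 FPKM, with wide overlap and a difference of -0.23 ± 0.20 (SE) on the log2 scale (limma adjusted p = 0.97, exact permutation p = 0.4).

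Smo measured 6.59, 8.09 and 7.52 FPKM with CT-179, Sufu 4.42, 4.75 and 4.77, Hhip 1.45, 1.51 and 1.94, Gli2 0.911, 0.776 and 1.26, and Gli3 0.659, 0.529 and 0.675. Each overlapped its vehicle values, and the log2 fold changes were -0.04 for Smo, -0.05 for Sufu, -0.06 for Hhip and -0.09 for Gli2, which passed the filter with exactly 3 libraries. By limma 0 of the 6 genes tested passed and 0 had an unadjusted p under 0.05, where 0% of all 13422 genes passed and 490 had one. Their median was -0.07 beside 0.02 over all genes. Of 36 other pathway genes tested, 0 passed and 0 had an unadjusted p under 0.05, Shh (-0.04) included.

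Gli1 ranged over 2.86 to 5.24 FPKM within the vehicle brains alone. The lowest Gli1 of each group, in vehicle replicate 1 and CT-179 replicate 1, came with the lowest Atoh1, the granule precursor factor (0.321 against 1.42 and 1.07 FPKM with vehicle, and 0.426 against 0.744 and 1.18 with CT-179). Other granule lineage genes were divided: in vehicle replicate 1, Zic1 (85.3 FPKM), Zic2 (72.1), Neurod1 (115) and Gabra6 (95.7) were the highest of the vehicle group. Barhl1, Meis1 (4.99 FPKM), Pax6 (7.20), Reln (10.3), Cntn2 (30.9) and Rbfox3 (61.8) were the lowest of that group there. In CT-179 replicate 1, by contrast, Zic1 (60.95 FPKM), Zic2 (56.9), Neurod1 (90.1) and Gabra6 (50.8) were the lowest of the CT-179 group. Barhl1, Meis1 (4.97 FPKM), Reln (10.6) and Cntn2 (29.4) were also its lowest there, while Pax6 and Rbfox3 were its highest. For Ptch1, vehicle replicate 1 held 7.38 FPKM, between the other 2 vehicle libraries. The ratio of Gli1 to Ptch1 was 0.388, 0.674 and 0.722 with vehicle and 0.516, 0.523 and 0.670 with CT-179.

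The summed proliferation genes were 24.5, 33.8 and 30.7 FPKM with vehicle and 26.7, 26.9 and 34.1 with CT-179. The summed granule lineage genes, none of them below 0.1 FPKM throughout, were 688, 614 and 691 with vehicle and 592, 734 and 642 with CT-179. The summed blood genes ran from 47.0 to 154 FPKM with vehicle and from 53.6 to 243 with CT-179. The summed neuronal genes ran from 1793 to 2008 FPKM with vehicle and from 2019 to 2083 with CT-179, without overlap. Of its genes only Tubb3 was without overlap (325.5 to 343.7 against 357.1 to 387.0). The summed oligodendrocyte lineage genes ran from 3805 to 4165 FPKM with vehicle and from 4090 to 5229 with CT-179. Of these genes Olig1 (157 to 163 against 178 to 196), Mog (258 to 301 against 309 to 364) and, barely, Mbp were higher without overlap, while the others overlapped. The part of these sums in the values of the core genes was not tested. In single libraries the ratio of Ptch1 to Smo was 0.976, 0.998 and 0.887 with vehicle and 0.794, 0.813 and 0.839 with CT-179, without overlap, a ratio singled out after its values had been seen and not tested.

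**Figure D5:**
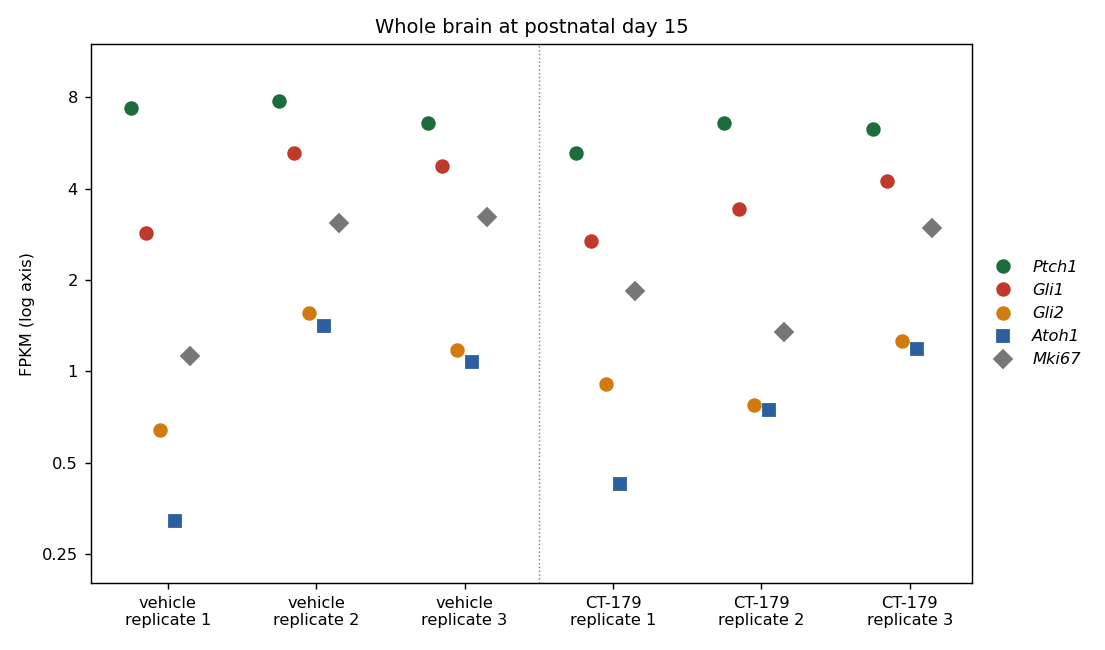
FPKM (log axis) of Ptch1, Gli1, Gli2, Atoh1 and Mki67 in the 6 brain libraries, vehicle left and CT-179 right of the dotted line, 1 point per gene and library. Vehicle replicate 1 is the lowest vehicle library for Gli1 (2.86 FPKM), Gli2, Atoh1 and Mki67 (1.12 FPKM) but not for Ptch1.

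In the authors' deposited table for the brains, whose log2 fold change matched that of vehicle replicates 1 and 3 over all CT-179 libraries (Pearson's r 1.000 across 13114 genes, against 0.682 with all 3 vehicle libraries), no core gene passed. With vehicle over CT-179 as its direction, the authors' deposited table gives 0.21 for Ptch1 (p-value 0.154), 0.14 for Gli1, 0.07 for Hhip, 0.02 for Smo and Sufu, -0.06 for Gli3 and -0.11 for Gli2. The false discovery rate in the authors' deposited table is 1 for all 7. Leaving out vehicle replicate 2 in the limma fit of the FPKM values gave -0.09 for Gli1 and -0.18 for Ptch1 as CT-179 over vehicle, and leaving out vehicle replicate 1 gave -0.44 for Gli1 (limma adjusted p = 0.70).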

How the data were processed

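RNA was extracted with RNeasy columns and sequenced from SMARTer mRNA libraries as paired reads of 100 bases, per the labels' protocols. The submitters' processing notes name the genome build mm10 and the tools HTSeq 0.6.1p2, STAR 2.6.0c, R 3.6, edgeR 3.28.1 and Trim Galore 0.5.0. Annotation and strand setting are not given in the sources used here. As deposited by the authors, values are FPKM per gene and library, 1 table for the cells and 1 for the brains, with, beside the latter, a brain comparison of a log2 fold change, an LR score, a p-value and an FDR, per the file headers. Depths are those implied by FPKM steps, of which 90.0% to 98.5% of values up to 20 reads lay within 0.1 of a whole read; this share describes the estimate and no count test was run.

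FPKM was taken as log2(FPKM + 1), genes reaching 1 FPKM in 3 or more libraries were kept, and limma 3.58.1 in R 4.3.3 fitted 1 model to the 12 cell libraries and 1 to the 6 brain libraries, with Benjamini-Hochberg adjustment over all genes tested and a threshold of 0.05. Fits without CT-179 144 h replicate 2 are given beside each. Between 24 h and 144 h in CT-179 cells the deviations of same-numbered samples correlated at 0.109, 0.241 and 0.138, although replicate 1 of one time correlated more with replicate 3 of the other (0.153), and a replicate block left the calls of the core genes there at 5. Deviations from a group mean cancel out within the group, so the 3 same-numbered values are not separate signs of pairing. In the other 4 comparisons not every pair was over 0.1. Exact two-sided permutation tests were made with scipy 1.17.1. The fits were tested on simulated data with changes of 1 and 2 on the log2 scale. Of 100 genes changed by 1, 87 were recovered in cells and 85 in brain, and of 100 changed by 2, 96 in each. False calls among unchanged genes numbered 7 in cells and 13 in brain. The simulated spread was drawn for each gene separately. Smaller changes, such as those of the core genes with CT-179 in the main fits, were not simulated, nor was a library that stands apart. Alternatives were another pseudocount, no filter, TPM, median-of-ratios and upper-quartile scaling, a gene length correction, array weights, a replicate block, separate fits and leaving out each library. The core genes were always named, from the other lists up to 4 genes past the threshold with the smallest p plus ligands, and up to 3 genes most like each core gene. Values of some single genes are not reported here. The members and the lists were chosen with earlier results of these data known. Whether replicates were separate cultures or mice is not stated. The p-values therefore cover the spread between these libraries alone, and that spread may be technical.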

Additional observations from a re-analysis of the deposited data

Results flagged for a closer look

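For 2 core genes the effect of CT-179 differed between 24 h and 144 h when CT-179 144 h replicate 2 was left out. The effect at 144 h minus that at 24 h was -0.48 for Gli1 (limma adjusted p = 0.0058) and 0.25 for Gli3 (limma adjusted p = 0.046). Gli3 no longer passed when these 11 were scaled by median of ratios (0.24, limma adjusted p = 0.061). With all 12 libraries neither difference passed, and Gli3 had the opposite sign (-0.05, limma adjusted p = 0.92).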

How the results depend on the processing

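The number of core genes past the threshold depended mainly on CT-179 144 h replicate 2. At 24 h it was 0 with all libraries and 0 to 4 with each library left out, 4 with array weights (whose estimation stopped before convergence), 4 without replicate 2 and with median-of-ratios scaling, 1 without it and with a length correction, and 2 in a separate fit. At 144 h it was 1, and 1 to 4, 4, 5, 4 and 0 in the same order, and for the difference between the times it was 0, and 0 to 2, 2, 1 and 2, with no separate fit. Between the times, Hhip included although the filter set its direction, it was 5 in vehicle cells and 7 without CT-179 144 h replicate 2. In CT-179 cells it was 5, with 6 without that library, 4 or 5 with any other library left out, where Gli2 did not pass, and 3 in a separate fit. In brain it was 0 under every alternative. At 144 h the median over all genes was -0.05, and -0.22 with TPM scaling. The cause of these changes was not tested.

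These signs turned. At 24 h Smo was -0.052 with TPM scaling and -0.003 and -0.005 without vehicle or CT-179 24 h replicate 2, and with a length correction Hhip was 0.033 and Sufu 0.001, with or without CT-179 144 h replicate 2. At 144 h the length correction gave 0.055 for Gli3, 0.007 for Hhip and 0.056 for Sufu. Array weights gave Gli3 0.092, Hhip 0.000, Smo 0.121 and Sufu 0.036. Without replicate 2 the values were Gli3 0.078, Hhip 0.011, Smo 0.131 and Sufu 0.048, then with median-of-ratios scaling 0.122, 0.050, 0.185 and 0.099, and with the length correction 0.161, 0.090, 0.175 and 0.115. For the difference between the times the length correction gave Gli3 0.149 and Sufu 0.054. Array weights gave Gli3 0.255, Hhip 0.048, Smo 0.112 and Sufu 0.101. Without replicate 2 the values were 0.253, 0.054, 0.123 and 0.109, then with median-of-ratios scaling 0.241, 0.078, 0.116 and 0.101, and with the length correction 0.255, 0.057, 0.130 and 0.114. With 1 library left out, the values ran from -0.005 to 0.019 for Smo at 24 h. At 144 h they ran from -0.383 to 0.078 for Gli3, -0.405 to 0.011 for Hhip, -0.447 to 0.131 for Smo and -0.281 to 0.048 for Sufu, and for the difference from -0.207 to 0.253, -0.362 to 0.054, -0.455 to 0.123 and -0.220 to 0.109. In brain they ran from -0.094 to 0.036 for Smo and -0.132 to 0.001 for Sufu. In brain Hhip was 0.056 with array weights, Sufu 0.001 without vehicle replicate 3 and Smo 0.036 without CT-179 replicate 1.

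Of 15 correlations of same-numbered samples, from -0.394 to 0.241, 4 were highest with their own number, and the 3 between the times in CT-179 cells were all over 0.1. Those 3 are not separate signs of pairing, since deviations from a group mean cancel out within the group. With a replicate block the core genes past the threshold numbered 0 at 24 h, 1 at 144 h, 0 for the difference, 5 and 5 between the times (Hhip included) and 0 in brain, while genes called lower at 24 h went from 33 to 2. Depth limits Hhip most, the lowest of the 7 in cells.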
